A study of Mus musculus with 16 samples.

Results

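Nr4a1, Nr4a2, Nr4a3, Npas4, Arc and Ier2 are 6 genes known to be switched on by stimulation of a cell, and they were followed here in every library of a study of mouse olfactory mucosa. They were taken by gene symbol from 19505 genes with a named probe set on the array. Each of the 6 had 1 probe set. The Nr4a family makes up 3 of them.

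S100a5-tauGFP mice were used, in which green fluorescent protein (GFP) reports on S100a5, an activity-raised calcium-binding protein of olfactory sensory neurons. The 24 mice, of strain C57BL/6, both sexes and 7 to 12 weeks of age, stayed singly for 40 h in chambers with clean air flowing at 3.1 L per min. From 26 h on they received 10 s pulses every 20 min, either of isoamyl acetate mixed with whiskey lactone (odor) or of filtered air (vehicle). The mucosa of 3 mice was pooled, dissociated and sorted for GFP, and 1 array was hybridised per sorted fraction. This gave 4 groups of 4 libraries, namely odor titled GFP+, odor titled GFP-, vehicle titled GFP+ and vehicle titled GFP-. RNA of 50 to 100 ng was labelled per library. All groups carry the reporter. It shows activity only through S100a5 in neurons, each library averages over 3 mice, and a sorted fraction can hold cells that are not neurons.

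Immediate early genes are transcribed within minutes of a stimulus without new protein synthesis, mainly through transcription factors such as CREB and SRF that are already present and are phosphorylated when calcium, cyclic AMP or growth factor signals arrive. Nr4a1, Nr4a2 and Nr4a3 encode orphan nuclear receptors, Npas4 a transcription factor of neurons that responds to calcium entry, Arc a protein that helps to remove glutamate receptors from synapses, and Ier2 a small nuclear protein induced by growth factors and by stress. The Nr4a genes are also induced in activated immune cells.

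Promoter sequence was given for 4 of the 6 members, and these sequences are shown because TGACG, the core of the cyclic AMP response element to which CREB binds, recurs in them. Each is the 250 bases before the gene start, 5′ to 3′ on the gene's strand, from RefSeq (assembly GRCm38.p6). They lie at chr15:101266596-101266845 (plus strand, Nr4a1), chr2:57124004-57124253 (minus strand, Nr4a2), chr4:48045055-48045304 (plus strand, Nr4a3) and chr19:4989972-4990221 (minus strand, Npas4). Capitals mark every TGACG, read on either strand, so that it also appears as CGTCA.
Nr4a1: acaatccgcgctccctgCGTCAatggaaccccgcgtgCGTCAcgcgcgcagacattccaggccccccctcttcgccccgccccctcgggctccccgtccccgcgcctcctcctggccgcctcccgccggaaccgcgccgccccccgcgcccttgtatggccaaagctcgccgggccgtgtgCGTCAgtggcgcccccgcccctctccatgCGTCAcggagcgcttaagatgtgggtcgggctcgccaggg
Nr4a2: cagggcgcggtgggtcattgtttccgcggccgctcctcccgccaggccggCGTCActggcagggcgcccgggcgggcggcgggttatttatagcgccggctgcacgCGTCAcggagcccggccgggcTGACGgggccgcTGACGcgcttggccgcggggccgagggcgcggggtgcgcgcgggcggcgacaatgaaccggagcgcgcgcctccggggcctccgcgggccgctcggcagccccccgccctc
Nr4a3: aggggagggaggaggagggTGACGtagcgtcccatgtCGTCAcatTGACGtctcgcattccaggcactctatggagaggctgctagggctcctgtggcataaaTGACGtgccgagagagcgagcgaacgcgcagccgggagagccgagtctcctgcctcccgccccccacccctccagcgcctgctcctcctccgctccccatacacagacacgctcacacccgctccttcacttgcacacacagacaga
Npas4: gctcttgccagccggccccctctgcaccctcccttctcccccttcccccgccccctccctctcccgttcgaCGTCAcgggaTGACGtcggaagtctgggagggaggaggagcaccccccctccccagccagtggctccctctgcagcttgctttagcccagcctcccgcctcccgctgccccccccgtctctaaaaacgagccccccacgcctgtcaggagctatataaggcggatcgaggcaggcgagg
Nr4a1, Nr4a2 and Nr4a3 each held 4 such cores and Npas4 held 2. Of 32851 promoter windows of the same length, 17.8% held at least 1 core, 3.9% at least 2 and 0.137% at least 4. The first bases of the matches lay 233, 213, 69 and 40 bases before the gene start in Nr4a1, 200, 144, 123 and 111 in Nr4a2, 231, 213, 205 and 147 in Nr4a3, and 179 and 169 in Npas4. The whole element TGACGTCA, which contains the core on both strands, was in 0 of the 4 windows and in 1.55% of all. The other motifs searched on both strands were the CArG box bound by SRF, AAAGGTCA (the site of the Nr4a receptors themselves), TGANTCA (AP-1), GCGNGGGCG (EGR) and GGGCGG (GC box). The CArG box (1.47% of all windows), the Nr4a site (1.34%) and the AP-1 site (6.75%) had 0 matches in the 4 windows. An EGR site, present in 4.7% of all windows, was found once each in Nr4a1 and Nr4a2. GC boxes, in 32.7% of all windows, numbered 3 in Nr4a1, 4 in Nr4a2, 1 in Nr4a3 and 1 in Npas4. Arc and Ier2 are described by their levels.

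Values are on the log2 scale of the authors' deposited table, which runs from 1.69 to 19.4 and so passes the limit of 16 of a scanner with whole-number output. Differences are therefore given on that scale and not as folds, and levels of different genes are not set against each other. The title of each of the 16 samples names 1 fraction and its cell type tag names the opposite one, and the groups follow the titles. S100a5, which carries the reporter, was lower in the fraction titled GFP+ of 7 of 8 pools. Vehicle pool 3 ran the other way, so results are given for all 16 arrays as titled and for the 14 arrays without that pool. Under the tags, each fraction difference would take the opposite sign.

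The 3 Nr4a genes were higher in the fraction titled GFP+, where S100a5 was lower, in odor pools and in 3 of 4 vehicle pools. Nr4a3 differed by 3.55 ± 0.77 (SE), Nr4a2 by 3.01 ± 0.85 and Nr4a1 by 2.68 ± 0.69 in odor. These calls over all 16 arrays were lost with the pool of mice as a block (adjusted p = 0.165 for Nr4a1, 0.185 for Nr4a2 and 0.161 for Nr4a3) and on leaving out any 1 of 7 of the 8 odor libraries, and held in all alternatives tried without vehicle pool 3. A fit of only the odor libraries, with no block, kept all 3. The direction was the same under every scaling tried. Ier2 was higher by 0.56 in odor, past the threshold without vehicle pool 3 but not with it, and Npas4 and Arc showed no difference past the threshold in either treatment. In odor against vehicle no member passed, where at most 0.0359% of all genes did. In sorted pools, fewer cells of a type and less RNA per cell cannot be told apart.

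**Figure D1:**
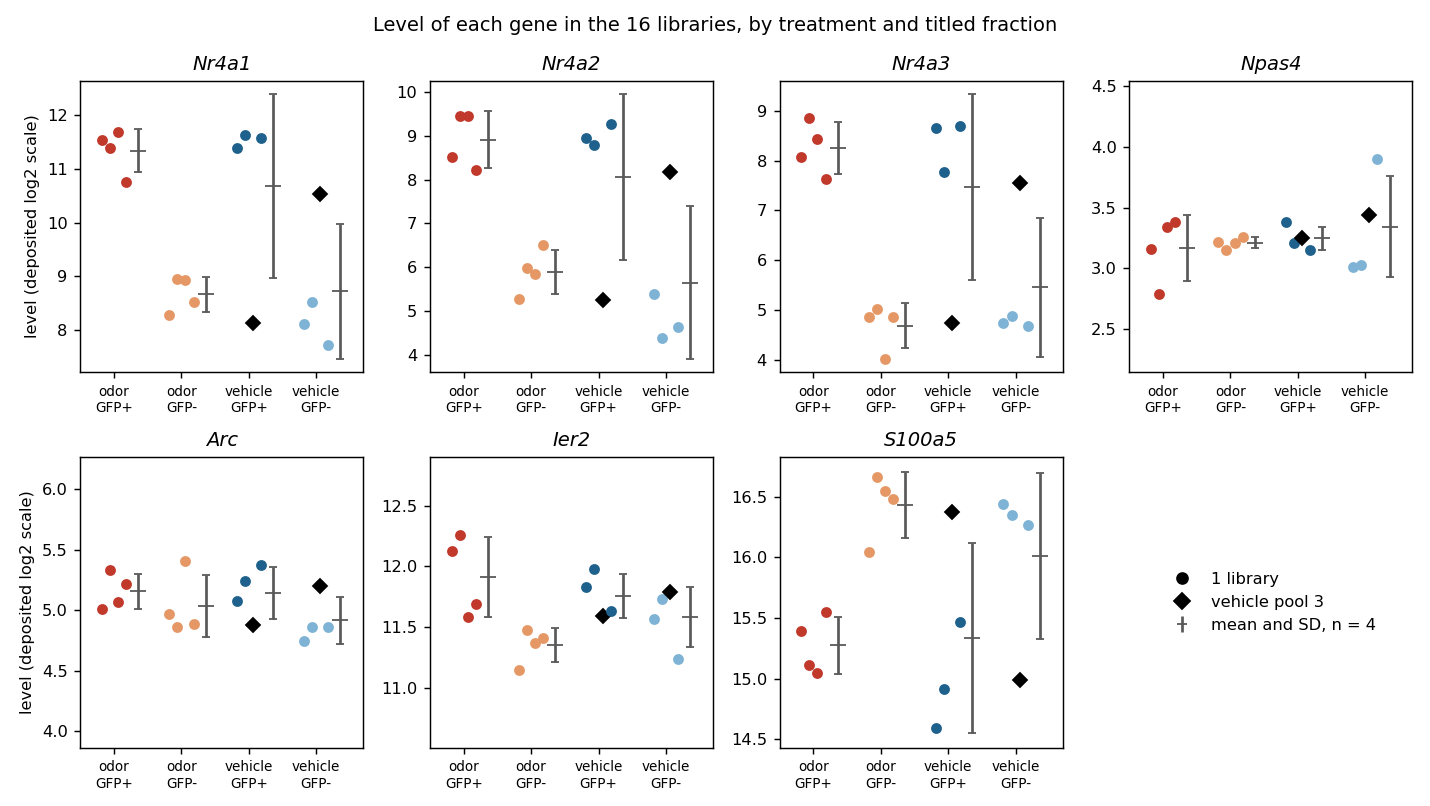
Level of each member and of S100a5 (deposited log2 scale, 1 panel per gene, each with its own axis) in the 16 libraries, by treatment and titled fraction, with the mean and SD of 4 libraries beside the points. Diamonds are the libraries of vehicle pool 3. Nr4a1, Nr4a2 and Nr4a3 are high in both groups titled GFP+, apart from vehicle pool 3, and the groups of Npas4 and Arc lie close together. Without vehicle pool 3 the vehicle groups of Arc do not overlap.

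Nr4a1 (also known as Nur77) encodes a nuclear receptor induced in neurons and in lymphoid and myeloid cells. Its level was 11.53, 11.38, 11.69 and 10.76 in the odor libraries titled GFP+ (replicates 1 to 4), against 8.28, 8.94, 8.92 and 8.51 in those titled GFP-. The lowest odor library titled GFP+ lay above the highest titled GFP-, so these groups did not overlap. Vehicle replicates 1 to 4 had 11.38, 11.64, 8.12 and 11.58 where titled GFP+, against 8.10, 8.52, 10.53 and 7.71 where titled GFP-. Vehicle replicate 3 was low where titled GFP+ and high where titled GFP-, and the other vehicle libraries separated as in odor.

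Nr4a2 (Nurr1) is best known for its role in dopamine neurons. It was 8.51, 9.46, 9.46 and 8.22 in the odor libraries titled GFP+ (replicates 1 to 4), against 5.28, 5.99, 5.84 and 6.50 in those titled GFP-. The odor groups did not overlap, and odor pool 4 had the smallest gap of the 7 pools other than vehicle pool 3, at 1.72. Among vehicle replicates 1 to 4 Nr4a2 was 8.94, 8.80, 5.25 and 9.26 where titled GFP+, against 5.40, 4.39, 8.18 and 4.64 where titled GFP-. Again vehicle replicate 3 alone broke the order.

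Nr4a3 (NOR-1) is the third orphan receptor of the family. It was 8.08, 8.85, 8.43 and 7.63 in the odor libraries titled GFP+ (replicates 1 to 4), against 4.85, 5.02, 4.02 and 4.86 in those titled GFP-. The vehicle replicates had 8.65, 7.78, 4.73 and 8.69 where titled GFP+, against 4.74, 4.87, 7.55 and 4.68 where titled GFP-. Its groups separated in both treatments once vehicle pool 3 was left out, with per-pool differences from 2.76 to 4.40.

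The low libraries bear on how these differences read. Nr4a3 lay above 84.5% to 92.9% of the 5222 probe sets named as negative controls in its high libraries, and above 15.6% to 42.8% of them in its low ones. Nr4a2 lay above 88.7% to 94.7% in the high libraries and 24.8% to 72.8% in the low ones. Nr4a1 stayed above 76.9% of the negative controls in every library. These controls centred on 5.46 and 5% of them lay above 9.79, so they do not mark a clean background. The differences of Nr4a2 and Nr4a3 rest on low libraries within the range of these controls. Their high libraries were also within it, above at most 94.7% of the controls for Nr4a2 and 92.9% for Nr4a3. So were the low libraries of Nr4a1, above 76.9% to 92.9%. Where their sizes are shown beside those of other genes, the order is not read as a result.

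Npas4 encodes a transcription factor that neurons make after calcium entry. It was 3.16, 2.79, 3.34 and 3.38 in the odor libraries titled GFP+ (replicates 1 to 4), against 3.22, 3.15, 3.21 and 3.26 in those titled GFP-. Its vehicle values were 3.38, 3.21, 3.25 and 3.15 where titled GFP+, against 3.01, 3.03, 3.44 and 3.90 where titled GFP-. The groups overlapped in both treatments, and the level was above only 4.1% to 13.5% of the negative control probe sets in each library.

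Arc, whose messenger RNA is carried into the dendrites of active neurons, was 5.01, 5.33, 5.07 and 5.22 in the odor libraries titled GFP+ (replicates 1 to 4), against 4.97, 4.86, 5.41 and 4.89 in those titled GFP-. Vehicle replicates of Arc were 5.08, 5.24, 4.88 and 5.37 where titled GFP+, against 4.75, 4.86, 5.20 and 4.86 where titled GFP-. The odor groups overlapped, and without vehicle pool 3 the vehicle groups did not. Arc lay above 28.2% to 51.5% of the negative controls, so a low level of either Npas4 or Arc could not be told from the background of the array.

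Ier2 was 12.13, 12.26, 11.58 and 11.69 in the odor libraries titled GFP+ (replicates 1 to 4), against 11.15, 11.48, 11.37 and 11.41 in those titled GFP-. Its vehicle replicates were 11.83, 11.98, 11.59 and 11.63 where titled GFP+, against 11.57, 11.73, 11.79 and 11.24 where titled GFP-. The odor groups did not overlap, but by a narrow margin, and the vehicle groups overlapped with and without pool 3. Ier2 lay above at least 96.7% of the negative controls in every library.

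Tests used limma over all 19505 genes, with 1 mean per group, two-sided p-values adjusted by Benjamini-Hochberg and a threshold of 0.05 on the adjusted p. Errors of differences are standard errors, and the p-values measure the spread between these pools. In the odor pools over all 16 arrays, 3 of the 6 members were higher in the fraction titled GFP+, where 4.57% of all genes were called higher and 6.97% in either direction. These were Nr4a1 (2.68 ± 0.69, adjusted p = 0.0353), Nr4a2 (3.01 ± 0.85, adjusted p = 0.0463) and Nr4a3 (3.55 ± 0.77, adjusted p = 0.0286). With the pool of mice as a block, 0 members passed (adjusted p = 0.165, 0.185 and 0.161 for Nr4a1, Nr4a2 and Nr4a3), and 0.0103% of all genes did. Leaving out any 1 of 7 of the 8 odor libraries also left 0 members called. The exception was odor replicate 4 titled GFP+, without which 2 were called. Nr4a2 missed the threshold after quantile normalization (2.81, adjusted p = 0.0515), and with a robust, level-dependent prior in limma Nr4a3 alone passed. A fit of only the odor libraries, with no block, called Nr4a1, Nr4a2 and Nr4a3, and 2315 genes in all.

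Without vehicle pool 3 the odor differences are the same by construction and their errors smaller, and 4 of the 6 members were higher, where 8.59% of all genes were and 13.2% passed in either direction. Nr4a1 had an adjusted p of 5.73e-07, Nr4a2 of 5.83e-06 and Nr4a3 of 2.67e-07, all past the threshold in each of 22 alternatives, the block of pools among them. Ier2 was the fourth, higher by 0.56 ± 0.18 (adjusted p = 0.0479, against 0.0643 over all 16 arrays). Ier2 lost its call in 14 of the 22 alternatives, with a difference of 0.21 and an adjusted p of 0.256 when arrays were centred on their medians over genes. That centring moved the median difference of all genes to -0.43, against -0.08 as deposited, and the share of higher genes among those called to 13.3%, against 65.2%. The differences of Npas4 (-0.04 ± 0.19, adjusted p = 0.934) and Arc (0.13 ± 0.15, adjusted p = 0.672) were smaller than their errors, with 95% intervals from -0.45 to 0.37 and from -0.19 to 0.44; Arc changed sign under centring (-0.22) and quantile normalization (-0.05), and Npas4 under quantile normalization (0.05). Values of 4 members did not overlap between the odor groups, where 8.9% of all genes were higher without overlap.

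**Figure D2:**
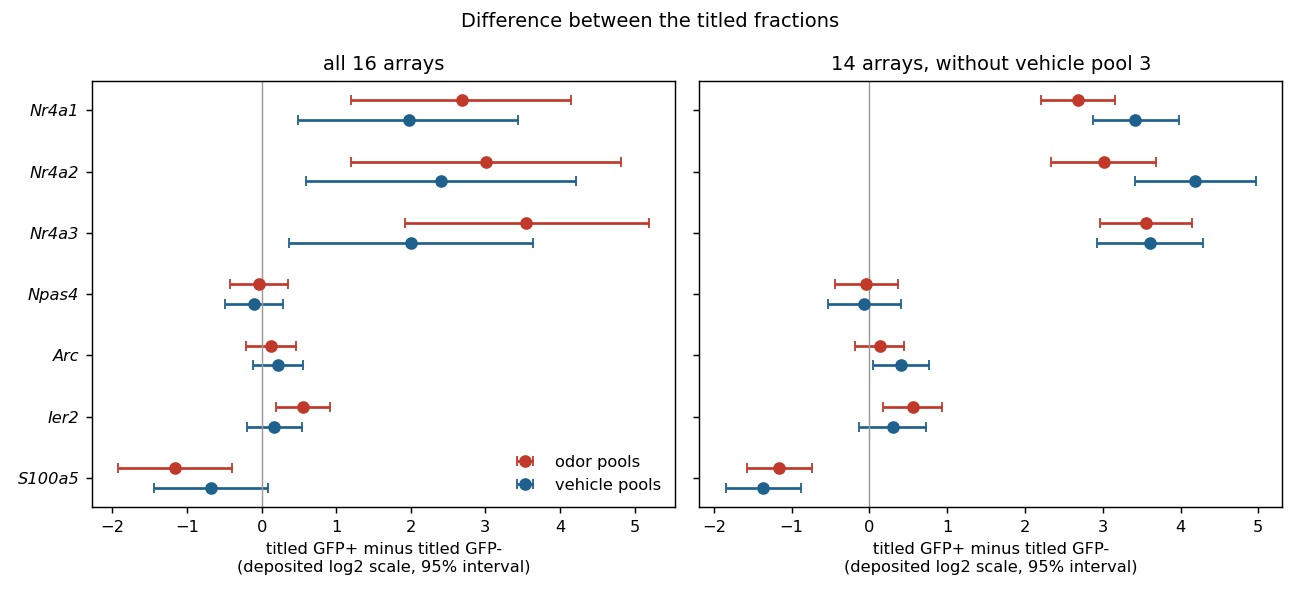
Difference between the titled fractions, titled GFP+ minus titled GFP- (deposited log2 scale), with 95% intervals from limma, for the 6 members and S100a5 in odor and vehicle pools. Over all 16 arrays (left) the intervals are wide, and over the 14 arrays without vehicle pool 3 (right) those of Nr4a1, Nr4a2 and Nr4a3 lie above 2 in both treatments while S100a5 lies below 0.

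In the vehicle pools 0 of the 6 members passed over all 16 arrays, as did 0% of all genes (1912 genes and 3 members had an unadjusted p under 0.05). Nr4a1 differed by 1.97 ± 0.69, Nr4a2 by 2.41 ± 0.85 and Nr4a3 by 2.00 ± 0.77, with an adjusted p of 0.478 each. Leaving out vehicle replicate 3 titled GFP+ alone called all 3 (adjusted p from 0.00595 to 0.0103). Without both libraries of pool 3, 3 of the 6 members were higher, where 7.86% of all genes were and 11.2% passed in either direction. Nr4a1 differed by 3.42 ± 0.26 (adjusted p = 2.82e-07), Nr4a2 by 4.19 ± 0.37 (adjusted p = 1.24e-06) and Nr4a3 by 3.61 ± 0.32 (adjusted p = 1.52e-06). Each passed in all 22 alternatives, none of which included pool 3. That pool was left out because it ran opposite, so these p-values hold only given that choice. Within vehicle pool 3 the difference was opposite, at -2.41 for Nr4a1, -2.93 for Nr4a2 and -2.82 for Nr4a3, and S100a5 differed there by 1.38, against -1.86 to -0.80 in the other vehicle pools.

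The other members did not pass in vehicle. Arc differed by 0.41 ± 0.17 (adjusted p = 0.169) without pool 3, with groups that did not overlap, as was the case for 12.6% of all genes in that direction. After centring over genes its difference was 0.05. Ier2 differed by 0.30 ± 0.20 (adjusted p = 0.428), and by -0.05 after that centring, and Npas4 by -0.07 ± 0.22 (adjusted p = 0.903). By pool, Ier2 was higher in the fraction titled GFP+ of 7 of 8 pools, Arc of 6 and Npas4 of 4.

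No member passed the threshold between odor and vehicle in either fraction. Over the 14 arrays 0 of the 6 passed in odor against vehicle in the fraction titled GFP+, where 0.0359% of all genes did, and 0 in the fraction titled GFP-, where 0.0256% did. In the fraction titled GFP+ the differences ran from -0.19 (Nr4a1) to 0.10 (Ier2), and the 95% interval for Nr4a1 was -0.71 to 0.33. There 0 members had an unadjusted p under 0.05, as 1518 of all genes had. In the fraction titled GFP- Nr4a2 differed by 1.09 ± 0.34, odor minus vehicle (unadjusted p = 0.00609, adjusted p = 0.413) and Nr4a1 0.56 ± 0.24 (unadjusted p = 0.0375, adjusted p = 0.621). In that fraction 1472 of all genes had an unadjusted p under 0.05. The lowest odor library titled GFP- for Nr4a2, at 5.28, lay below the highest vehicle one of the 14 arrays, at 5.40. Over all 16 arrays these differences were 0.25 ± 0.85 for Nr4a2 and -0.05 ± 0.69 for Nr4a1. There 0 members were called in either fraction, where 0% of all genes were in titled GFP+ and 0.0103% in titled GFP-. Also 0 members had an unadjusted p under 0.05, as 908 of all genes had in titled GFP+ and 1241 in titled GFP-.

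The fraction difference was itself compared between treatments. Over the 14 arrays its value in odor minus that in vehicle was -1.18 ± 0.48 for Nr4a2 (unadjusted p = 0.0276) and -0.75 ± 0.34 for Nr4a1 (unadjusted p = 0.0465), both with an adjusted p of 1. For Nr4a3 it differed by -0.05 ± 0.43. In this comparison 0 members passed, where 0.0103% of all genes did, and 523 of all genes had an unadjusted p under 0.05. Over all 16 arrays the same values were 0.60 ± 1.20 for Nr4a2, 0.71 ± 0.98 for Nr4a1 and 1.55 ± 1.09 for Nr4a3, so vehicle pool 3 turned the sign of all 3. There 0 members passed, where 0.00513% of all genes did, and 0 had an unadjusted p under 0.05, as 581 of all genes had.

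A mean over both fractions of a pool does not depend on which label is right. For Nr4a2 the pool means were 6.90, 7.73, 7.65 and 7.36 in odor pools 1 to 4, against 7.17, 6.60, 6.72 and 6.95 in vehicle pools 1 to 4. The means differed by 0.55, and odor pool 1 lay among the vehicle pools (exact permutation test, two-sided, p = 0.0857, where 0.0286 is the smallest p that 70 splits allow). Nr4a1 differed by 0.31 (exact permutation p = 0.2286) and Nr4a3 by 0.01 (exact permutation p = 0.9714). Arc differed by 0.06, Ier2 by -0.04 and Npas4 by -0.11, with exact permutation p-values of 0.4286, 0.7714 and 0.3714. In limma on the pool means 0 members passed, where 0.0103% of all genes did, and Nr4a2 was the 1 member at an unadjusted p under 0.05 (0.016, adjusted p = 0.621), as 1402 of all genes were, and 0 members were when single libraries were fitted with the pool as a random block. Without vehicle pool 3 Nr4a2 differed by 0.50 ± 0.21 (adjusted p = 0.512), and again 0 members passed, where 0.0103% of all genes did.

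**Figure D3:**
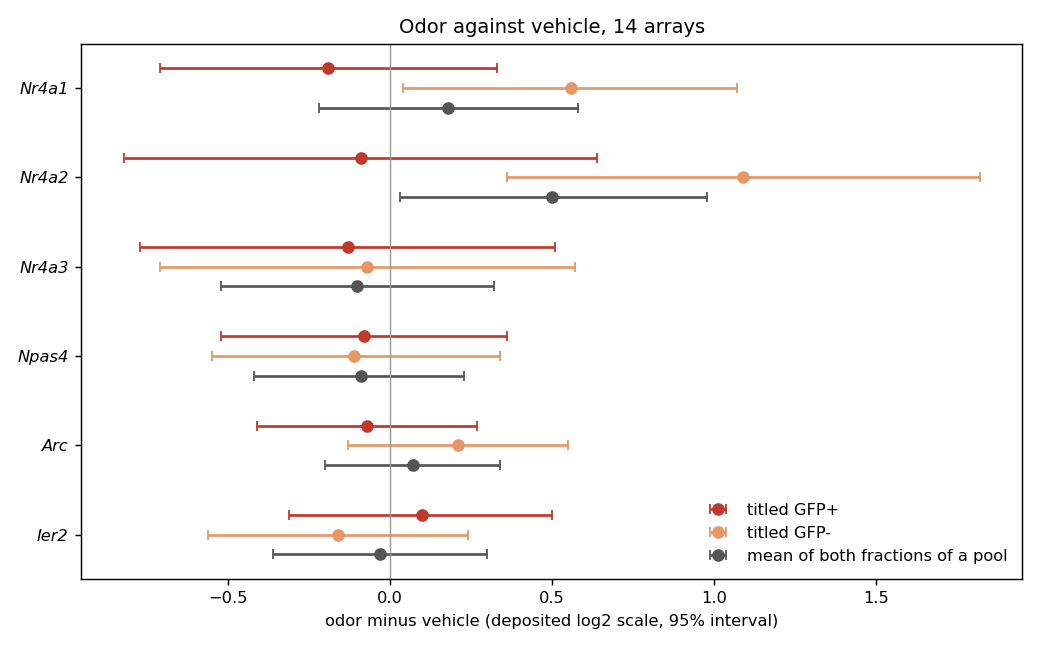
Odor minus vehicle for the 6 members over the 14 arrays (deposited log2 scale, 95% intervals from limma), in the fraction titled GFP+, in the fraction titled GFP- and for the mean of both fractions of a pool. Nr4a2 in the fraction titled GFP- has the highest value, at 1.09, and 0 of the 18 values passed after adjustment over all genes.

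Other immediate early genes were tested in the same comparison. Of 44 measured, 24 were higher and 1 lower in odor over the 14 arrays, and 26 higher and 0 lower in vehicle. Of all genes 8.59% were higher in odor and 7.86% in vehicle. The median difference was 1.18 in odor and 1.15 in vehicle, against -0.08 and -0.10 for all genes. Over all 16 arrays 21 were higher and 1 lower in odor, where 4.57% of all genes were higher, and 0 passed in vehicle. With the pool as a block over all 16 arrays, 0 of the 44 passed in either treatment. Egr2, a zinc finger transcription factor, differed by 6.48 ± 0.36 in odor and 6.09 ± 0.41 in vehicle. Egr1, of the same family, differed by 5.59 ± 0.31 and 5.06 ± 0.36, and Btg2, an antiproliferative regulator, by 4.78 ± 0.23 and 4.80 ± 0.27. Egr3 (0.38 ± 0.25), Egr4 (-0.11 ± 0.18) and Homer1, a synaptic scaffold protein (-0.10 ± 0.15), missed the threshold in both treatments, while Maff was lower in odor (-0.73 ± 0.18).

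**Figure D4:**
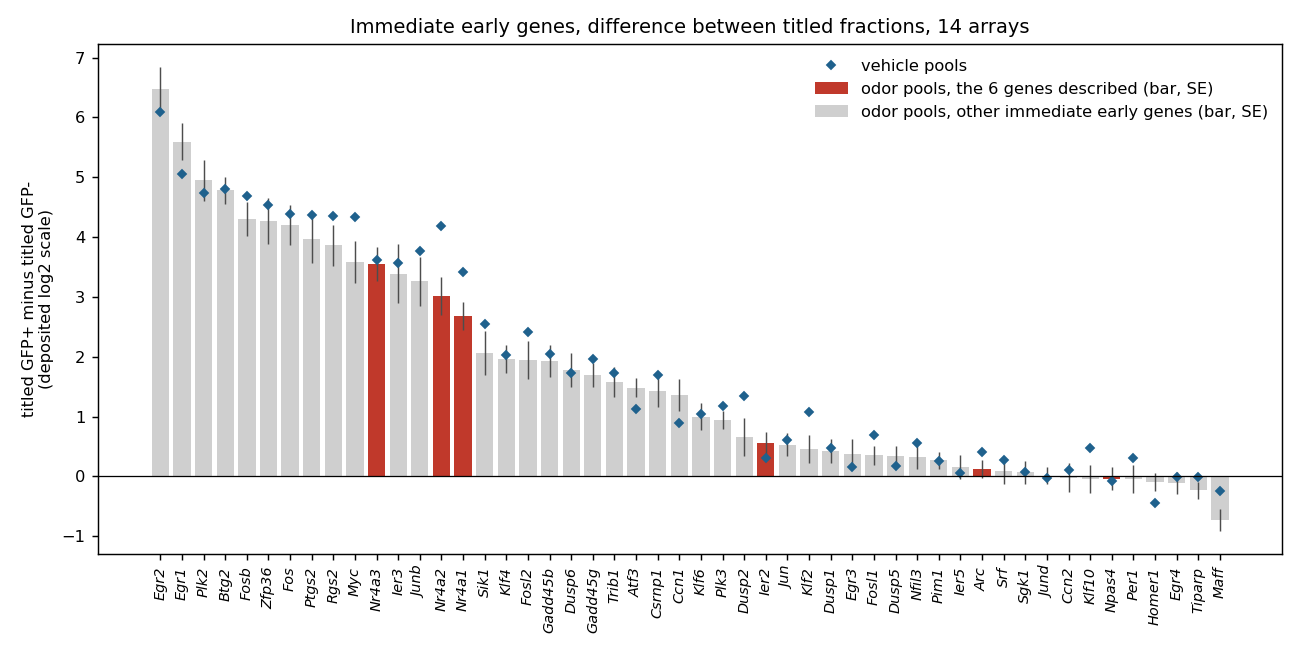
Difference between the titled fractions, titled GFP+ minus titled GFP- (deposited log2 scale, 14 arrays), for the 6 members and 44 other immediate early genes, sorted by the odor value for display only. Bars with SE are odor pools, diamonds vehicle pools, and the members are in red. Nr4a1, Nr4a2 and Nr4a3 stand between 2.68 and 3.55 in odor, and Ier2, Arc and Npas4 between -0.04 and 0.56.

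Genes that act before or after the members were counted in the same comparison, in which 13.2% of all genes passed in odor and 11.2% in vehicle over the 14 arrays. Of 30 upstream regulators 1 was higher and 2 lower in odor there. Mef2c, of a transcription factor family that regulates Nr4a1 in T cells, was higher by 1.60 ± 0.47 (adjusted p = 0.0344, against 0.13 over all 16 arrays). Nfatc2, a calcium-responsive transcription factor, was lower (-1.22 ± 0.17, adjusted p = 0.000107), as was Camk4, a kinase of CREB (-0.60 ± 0.14, adjusted p = 0.0086). In vehicle 1 was higher and 1 lower. Of 21 partners of the members, such as the Rxr receptors that bind Nr4a1 and Nr4a2, 0 passed in limma in either treatment, and the coactivator Ncoa1 came nearest in odor (-0.41 ± 0.15, adjusted p = 0.0999). Of 20 late or synaptic targets 4 were higher and 2 lower in odor, and 4 higher and 0 lower in vehicle. Plk2 and Rgs2, which are also counted among the immediate early genes, led them at 4.95 ± 0.34 and 3.86 ± 0.35 in odor. Of 6 heat shock genes Hspb1 alone passed in odor (0.71 ± 0.20, adjusted p = 0.0298, against 0.0897 over all 16 arrays), 2 passed there with the pool as a block, and 0 passed in vehicle. Genes raised by activity in olfactory neurons went the other way, with 5 of 6 lower in each treatment, led by Pcp4l1 (-1.82 ± 0.19 in odor) and Lrrc3b (-1.40 ± 0.20), and 2 of 6 lower in odor over all 16 arrays. S100a5 is counted among these 5 (limma adjusted p = 0.000588 in odor and 0.00056 in vehicle). The cells were sorted on its reporter, so its call is not independent of the sort. The counts over all 16 arrays were 0 upstream regulators higher and 2 lower in odor, 2 late targets higher and 1 lower, and 0 heat shock genes. In that comparison 6.97% of all genes passed in either direction. None of the listed genes passed there once pools were blocked.

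Markers of several other cell types were higher in the fraction where the Nr4a genes were higher. Over the 14 arrays 8.59% of all genes were higher there in odor and 7.86% in vehicle. All 11 neutrophil markers were higher in both treatments over the 14 arrays, with a mean level of 10.04 to 13.51 in odor libraries titled GFP+ against 4.37 to 5.77 in those titled GFP-, and of 13.00 to 13.82 in vehicle libraries titled GFP+ against 5.21 to 6.52 in those titled GFP-. Of 12 monocyte and macrophage markers 9 were higher in odor and 7 in vehicle, of 10 lymphoid markers 7 and 6, and of 11 sustentacular markers 7 and 5. All 9 microvillar and ionocyte-like markers were higher in both, as were 6 and 5 of 7 globose basal and progenitor markers and 6 and 5 of 11 immature neuron markers. Of 14 mature olfactory sensory neuron markers 0 were higher, and 2 were lower in odor and 1 in vehicle. Of 5 Bowman gland markers 3 were higher in each treatment, of 5 ensheathing glia markers 0 in odor and 1 in vehicle, and of 4 fibroblast markers 1 in odor and 0 in vehicle. The Bowman gland list shares Ltf with the neutrophil markers and Sox9 with the microvillar markers. Both are among its 3 genes called, so this count is not separate from those lists. Of 6 horizontal basal and 6 endothelial markers 0 passed in limma in either treatment, and with the pool as a block 1 horizontal basal marker was higher and 1 endothelial marker lower in odor. With all 16 arrays 11 neutrophil and 9 microvillar markers were higher in odor, with 5 of 12 for monocytes and macrophages and 4 each for lymphoid and sustentacular cells. So were 5 of 7 globose basal and progenitor, 6 of 11 immature neuron and 2 of 5 Bowman gland markers, and 1 of 14 mature neuron markers was lower. There 4.57% of all genes were higher. None of these markers passed over all 16 arrays with the pool as a block, or in vehicle. The mean level of the mature neuron markers was 16.03 to 16.19 in odor libraries titled GFP+ against 16.17 to 16.38 in those titled GFP-, so the labelled tissue had its defining markers in both fractions. In vehicle pool 3 the neutrophil markers averaged 4.36 in the library titled GFP+ and 11.06 in that titled GFP-, the order that the Nr4a genes took there. The part of these cells in the Nr4a differences was not tested.

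The genes most like each member were ranked by Pearson r over the 16 arrays. The libraries fall into clusters by fraction and share arrays between genes, so these correlations are a description. For Nr4a1 they were Cd24a (Pearson r = 0.981), Trem1 (0.977), Btg2 (0.977), S100a11 (0.976) and Fgr (0.974). For Nr4a2 Nr4a1 itself came first (0.968), then Nlrp3 (0.966), Olfr1043 (0.964), Fosb (0.960) and Fgr (0.958). For Nr4a3 they were Gnas (0.986), Atp8b4 (0.986), Ly6c1 (0.983), Tagln2 (0.982) and Myc (0.982). Nr4a1 and Nr4a3 correlated at 0.959, and Nr4a2 and Nr4a3 at 0.955. Trem1 is a receptor and Fgr a kinase of myeloid cells, while Btg2, Fosb and Myc are among the other immediate early genes counted above.

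For Npas4 the most alike with a gene name were Cox10 (0.801), Ppp3r2 (0.773), Ftdc1 (0.756), Slc22a13 (0.755) and Scarf1 (0.748), after 2 predicted or unnamed loci with a higher r than Cox10 and 1 more above Scarf1. For Arc they were Olfr457 (0.838), Olfr324 (0.797), Pold4 (0.786), Olfr986 (0.778) and Slc45a3 (0.767). For Ier2 they were Slc15a2, a peptide transporter (0.948), Pdlim3 (0.908), Adh1 (0.901), Agr2 (0.896) and Rplp0 (0.892). Within groups, as deviations from the 4 group means over the 14 arrays, the correlations within the family were lower, with 0.496 between Nr4a2 and Nr4a3, 0.329 between Nr4a1 and Nr4a2, and 0.154 between Nr4a1 and Nr4a3. The highest values there were 0.893 for Nr4a1 (Rsph3b), 0.884 for Nr4a2 (Vmn1r51), 0.913 for Nr4a3 (Hbq1b), 0.903 for Npas4 (Ftdc1), 0.930 for Arc (Irx3) and 0.962 for Ier2 (Slc15a2). In these deviations Npas4 and Ier2 correlated at -0.703. They share the pool and the array between genes, and Npas4 lies at the bottom of the range.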

How the data were processed

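The authors deposited 1 table of log2 values per probe set. Per the submitters' processing notes the software was Affymetrix Expression Console; its version, the summarization and any genome build were not given in the sources used here. Of 28846 probe sets 19572 were listed with 1 gene symbol and 0 with several, and the probe set with the highest mean over 16 arrays was kept per gene. Library medians ran from 6.13 to 6.45. Arrays have no read depth, and their number limits the precision.

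Group means were fitted with limma 3.58.1 under R 4.3.3, by lmFit and eBayes with no block, with Benjamini-Hochberg adjustment over 19505 genes, and checked on simulated data. Pool means were compared by exact permutation. The labels give 24 mice, 3 per library and 16 libraries, hence 8 pools with both fractions of a replicate number sorted from 1 pool, and their deviations from the group means correlated at -0.022 to 0.287 over 7 pools. Alternatives were the pool as a block, centring (over genes, and, added after the data were seen, over all probe sets), quantile normalization, a filter on low genes, the mean of probe sets, only the groups compared, another prior, and leaving out each library or pool. The 14 arrays without vehicle pool 3, the members, the lists and the markers were chosen with earlier results of these data known. All 6 members are named, with up to 3 genes per list by p in the odor fraction difference over 14 arrays and the 5 genes of highest Pearson r per member over 16 arrays (the first of 5 for deviations), passing over predicted or unnamed loci; Egr3, Egr4, Homer1 and Maff were added after their values were seen.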

Additional observations from a re-analysis of the deposited data

Results flagged for a closer look

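Dixon's criterion was applied to each of the 4 groups of 4 libraries, for the 6 members and for S100a5. By this criterion, which chance meets in about 1 in 20 groups, 5 values stood far from the other 3 of their group. Nr4a1 was 8.12 and Nr4a2 5.25 in vehicle replicate 3 titled GFP+, both the lowest of their group. Nr4a3 was 7.55 in vehicle replicate 3 titled GFP-, the highest of its group, and S100a5 was 14.99 in that library, the lowest of its group. These 4 values belong to the pool that ran opposite to the other 7 in S100a5. Nr4a3 was also lowest in odor replicate 3 titled GFP-, at 4.02, where the other 3 libraries lay between 4.85 and 5.02.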

How the results depend on the processing

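Over the 14 arrays Nr4a1, Nr4a2 and Nr4a3 kept their direction and their side of the threshold in both fraction comparisons under all 22 alternatives, with odor differences of 2.33 to 2.87, 2.66 to 3.24 and 3.20 to 3.76. None of these alternatives included vehicle pool 3. Over all 16 arrays the count of members called in the odor fraction comparison was 3. It was 0 with the replicate block of pools (2 genes in all, against 1359), 1 with trend and robust eBayes (896 genes), and 0 to 3 when 1 library was left out. In vehicle over all 16 arrays the count was 0 to 3 when 1 library was left out, and 3, with 1163 genes in all, without replicate 3 titled GFP+. The block changed no other member's call, and for pool means over 14 arrays it called 91 genes, against 2. Leaving out 1 odor library other than replicate 4 titled GFP+ called 2 to 3 genes in odor over all 16 arrays. A fit of only the groups compared called 3 members and 2315 genes there. It called 0 genes in odor against vehicle for titled GFP+ over 14 arrays, where 7 were called. Quantile normalization called 11 there and centring over all probe sets 2, and that centring called 8 for pool means over 14 arrays, against 2. For titled GFP- the fit of only the groups compared called 1 gene over 16 arrays, against 2, and 3 over 14, against 5. Centring over genes called 5741 genes in odor over all 16 arrays, 17.7% of them higher, against 65.6% as deposited, and 10078 over the 14 arrays, against 2570. In vehicle over the 14 arrays it called 8397 genes, 15.8% higher, against 2180 and 70.3%. Over all probe sets centring gave 45.5% higher in odor (16 arrays), and 43.8% and 56.4% in odor and vehicle (14 arrays), and Ier2 a difference of 0.40 (adjusted p = 0.19); quantile normalization gave 53.2%, 49.3% and 52.8%. Quantile normalization also brought Ier2 past the threshold over all 16 arrays (0.59, adjusted p = 0.0463).

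Differences changed sign under 74 of 1530 recomputed values, and 0 of those 74 passed the threshold. In odor, over both sets of arrays, centring over genes gave -0.22 for Arc, centring over all probe sets -0.02, and quantile normalization -0.05 for Arc and 0.05 for Npas4. In vehicle, centring over genes gave -0.02 for Ier2 over 16 arrays and -0.05 over 14, and quantile normalization 0.01 for Npas4 over 14. In odor against vehicle over 16 arrays, Arc in titled GFP+ was -0.05 with centring over genes, -0.01 over all probe sets and 0 with quantile normalization, and Nr4a1 in titled GFP- was 0.05 with centring over genes. With that centring Npas4 was -0.10 in the difference of fraction differences over 16 arrays, and Ier2 0 in pool means over 14.

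The other sign changes came from leaving out 1 library or pool, as these ranges show. In the fraction difference, Npas4 ran from -0.11 to 0.09 in odor over either set, and in vehicle from -0.21 to 0.09 over 16 arrays and -0.22 to 0.23 over 14. In odor against vehicle for titled GFP+ over 16 arrays, Nr4a1 ran from -0.19 to 0.98, Nr4a2 from -0.09 to 1.25, Nr4a3 from -0.13 to 1.19, Npas4 from -0.15 to 0.05 and Arc from -0.07 to 0.09. Over 14 arrays Nr4a1 ran from -0.31 to 0, Nr4a2 from -0.27 to 0.14, Nr4a3 from -0.42 to 0.08, Npas4 from -0.15 to 0.05, Arc from -0.15 to 0 and Ier2 from -0.02 to 0.21. For titled GFP- over 16 arrays Nr4a1 ran from -0.38 to 0.56, Nr4a2 from -0.17 to 1.09, Npas4 from -0.25 to 0.05 and Arc from -0.01 to 0.21, and over 14 Nr4a3 from -0.18 to 0.15 and Npas4 from -0.26 to 0.19. In the difference of fraction differences over 16 arrays Nr4a1 ran from -0.14 to 1.05, Nr4a2 from -0.34 to 1.02, Npas4 from -0.13 to 0.18 and Arc from -0.19 to 0.03, and over 14 Nr4a3 from -0.35 to 0.15 and Npas4 from -0.27 to 0.18. In pool means Ier2 ran from -0.12 to 0.02 and Nr4a3 from -0.15 to 0.09 over 8 pools, and over 7 Ier2 from -0.14 to 0.06 and Npas4 from -0.17 to 0.03. The cause of these shifts was not tested. The filter on low genes dropped Npas4, and a fit of only the groups compared was not run for the difference of fraction differences, which uses all groups, or for pool means. With 3 or 4 libraries per group and signals of Npas4 and Arc within the range of the negative controls, small differences of these genes were not detectable.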
